A study of Homo sapiens and Mus musculus with 4 samples.

Results

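Leukocyte integrins are the adhesion receptors with which blood cells hold on to other cells and to the matrix around them. The group described here is the 10 integrin subunit genes ITGAL, ITGB2, ITGA4, ITGB1, ITGB7, ITGAE, ITGA1, ITGA6, ITGAM and ITGAV. They were chosen by name, as human genes in the human cell lines and as mouse genes of the same symbol in the mouse cell lines. All 10 were found in each species, so the group holds 20 of the 60736 genes in the table.

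The study used bulk RNA sequencing of 4 established cell lines as a baseline for a comparison of single-cell methods. Jurkat is a human leukaemia line described by the study as CD4+ T cells, and TALL104 is a human leukaemia line of CD8+ T cells grown in the presence of interleukin-2. The mouse line EL4 is a lymphoma line described as CD4+ T cells, and IVA12 is a mouse hybridoma described as B cells. Each line was cultured in its own medium, so line and medium cannot be told apart, no other treatment is named, and each line gave 1 library. There were no replicates, so no test was made and no spread between cultures could be measured. Values are FPKM, which are fragments scaled by gene length and by library size, so that levels of different genes can be compared. Intervals in parentheses are exact Poisson intervals at 95% for the reads behind a value, recovered from the steps between FPKM values, and they cover counting error only. In a bulk library, fewer cells that express a gene and less RNA of it per cell cannot be told apart.

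An integrin is a pair of 1 alpha and 1 beta subunit, and neither subunit reaches the cell surface well without a partner. The beta 2 subunit, ITGB2, pairs with ITGAL to give LFA-1, the T-cell receptor for the ICAM adhesion proteins, and with ITGAM to give Mac-1, best known from myeloid cells. ITGB1 pairs with ITGA4, ITGA1, ITGA6 and ITGAV to give receptors for VCAM-1 and for the matrix proteins fibronectin, collagen and laminin. ITGB7 pairs with ITGA4 in a gut-homing receptor for MAdCAM-1 and with ITGAE in a receptor for E-cadherin on epithelium.

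The read totals to which the FPKM were scaled were recovered from the steps between FPKM values and need not equal the sequenced depth. They were 34783047 (Jurkat) and 28345951 (TALL104) for the human libraries, and 32149319 (EL4) and 25286728 (IVA12) for the mouse libraries. Of T-lineage genes, the 6 examined lay between 12.5 and 400 FPKM in the human lines and between 17.8 and 197 FPKM in EL4. In IVA12, Cd3d and Cd3e, defining parts of the T-cell receptor complex, had 1 read each, while Cd3g, the other CD3 chain examined, stood at 1.15 FPKM from 31 reads and Cd2 at 9.99 FPKM. The B-lineage genes Cd79b, Ms4a1 and Jchain stood at 163, 46.5 and 1289 FPKM in IVA12, but Cd79a, a part of the B-cell receptor complex, had 2 reads. Of the 7 B-lineage genes examined, 5 were at 1 FPKM or more in IVA12, but so were 3 in Jurkat, 4 in TALL104 and 1 in EL4. CD79A stood at 16.5 FPKM in Jurkat and 24.6 in TALL104. Of the 8 myeloid markers, those at 1 FPKM or more were CEBPA in Jurkat, at 1.13 FPKM, and Spi1 in IVA12, at 18.0 FPKM. The 7 stromal, endothelial and platelet markers found in human were each under 1 FPKM, while Epcam stood at 69.7 FPKM and Gp9 at 2.83 FPKM in IVA12, and Pecam1 at 11.8 FPKM in EL4 and 1.38 in IVA12; the part of such cells or programmes in the results was not tested. The share of own-species FPKM on mitochondrial genes was 14.9% for Jurkat, 20.6% for TALL104, 5.04% for EL4 and 4.79% for IVA12. A scaling that leaves these genes out is given with the human counts.

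The sequence in front of 3 human members is shown first, as examples of a beta subunit, an alpha subunit higher in TALL104 and an alpha subunit higher in Jurkat. RefSeq promoter windows on GRCh38.p14, from 250 bases before to 50 bases after a start site, were matched by symbol for 8 of the 10 human members, with 11 windows, and none was matched for ITGAL and ITGB2. Capitals mark AGGAAG, a form of the ETS-family site, and TGTGGT, a form of the RUNX site, searched on both strands. They are called the ETS core and the RUNX core here. Other forms were not searched, so a window without a match may still hold such a site. In the ITGAM sequence, CTTCCT, the ETS core on the other strand, is directly followed by TGTGGT, and they share no letter. ITGB7, at chr12:53207202-53207501 on the minus strand, and ITGAM, at chr16:31259725-31260024 on the plus strand, are the examples that stood higher in TALL104. ITGA4, at chr2:181457136-181457435 on the plus strand, is the example that stood higher in Jurkat.
ITGB7: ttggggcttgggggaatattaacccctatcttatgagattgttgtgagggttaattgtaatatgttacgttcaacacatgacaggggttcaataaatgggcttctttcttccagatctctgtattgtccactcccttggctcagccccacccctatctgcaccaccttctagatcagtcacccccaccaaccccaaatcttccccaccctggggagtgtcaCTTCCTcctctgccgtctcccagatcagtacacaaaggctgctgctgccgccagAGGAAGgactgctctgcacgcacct
ITGAM: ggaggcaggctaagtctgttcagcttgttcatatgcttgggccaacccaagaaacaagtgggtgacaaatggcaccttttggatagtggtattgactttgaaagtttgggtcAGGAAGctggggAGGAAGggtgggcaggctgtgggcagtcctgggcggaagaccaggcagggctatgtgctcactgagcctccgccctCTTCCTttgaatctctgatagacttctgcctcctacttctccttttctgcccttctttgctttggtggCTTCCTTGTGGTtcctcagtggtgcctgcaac
ITGA4: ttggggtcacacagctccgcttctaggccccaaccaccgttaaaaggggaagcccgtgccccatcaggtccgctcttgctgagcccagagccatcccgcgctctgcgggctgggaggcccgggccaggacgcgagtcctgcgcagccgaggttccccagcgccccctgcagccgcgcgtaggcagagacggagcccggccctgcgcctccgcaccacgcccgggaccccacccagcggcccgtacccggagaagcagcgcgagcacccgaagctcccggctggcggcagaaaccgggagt
The ITGB7 window holds 4 CpG pairs and 2 matches of the ETS core, and the ITGAM window holds 2 CpG pairs, 4 matches of the ETS core and 1 of the RUNX core. The ITGA4 window holds 31 CpG pairs and no match of AGGAAG or TGTGGT. Over 35116 promoter windows of this length the median was 14 CpG pairs, 33.6% held the ETS core and 13.1% the RUNX core. The windows not shown do not follow this contrast. An ITGA6 window, of a gene higher in TALL104, holds 38 CpG pairs and no match of AGGAAG. An ITGAV window, of a gene higher in Jurkat, holds a match of AGGAAG. Among the 11 windows of members, 6 held the ETS core and 3 the RUNX core, but the 2 ITGA6 windows overlap and hold the same RUNX match, so these are 2 distinct sites. These matches describe letters in a window and no binding was measured.

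The first comparison set the human T-cell lines side by side, Jurkat against TALL104. A gene was counted as different where (FPKM + 1) differed by more than 1.5-fold, and log2 ratios below are on that scale, which understates the change of low genes. Of the 10 members, 9 were more than 1.5-fold apart, against 25.3% of all 32738 human genes and 62.6% of the genes at 1 FPKM or more in either line. TALL104 was higher for 7 members, against 11.4% of all genes, and Jurkat for 2, against 13.8%. The median log2 ratio of Jurkat over TALL104 was -1.18 over the members and 0 over all human genes. Over the human genes at 1 FPKM or more in either line, as all 10 members were, it was 0.10. Scaling by the median ratio of genes present in both lines moved the human log2 ratios by up to 0.11 toward TALL104, and scaling without mitochondrially encoded genes moved them by a like amount. Neither changed which members were past 1.5-fold.

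**Figure D1:**
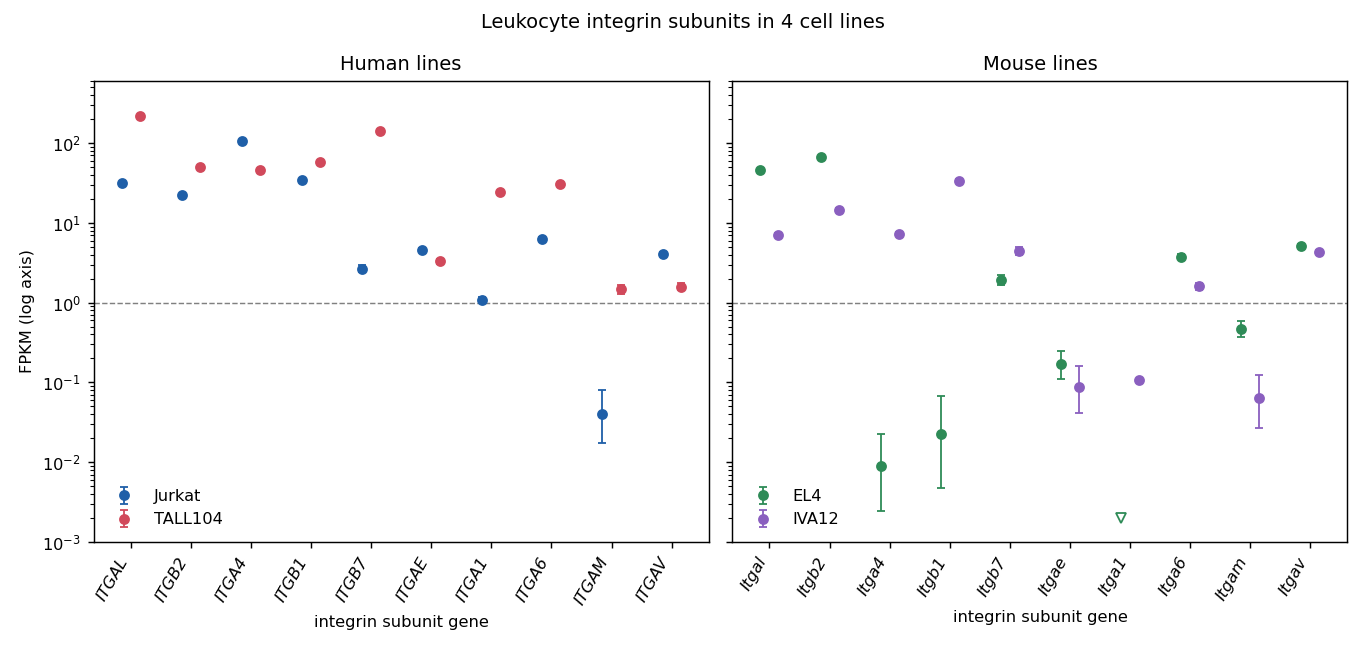
FPKM of each integrin subunit gene on a log axis, human genes in Jurkat and TALL104 on the left and mouse genes in EL4 and IVA12 on the right. Points are the 1 library of each line with 95% counting intervals, except Itga1 in IVA12, whose reads were not resolved; the open triangle, set below the scale's values, is a gene listed at 0, and the dashed line is 1 FPKM. Itga4 and Itgb1 lie below 0.05 FPKM in EL4 and above 5 FPKM in IVA12.

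Both LFA-1 subunits stood higher in TALL104. ITGAL (chr16:30483979-30534888 in hg19), the alpha subunit, was at 31.8 FPKM (31.1 to 32.6) in Jurkat and 216 FPKM (214 to 219) in TALL104. That is a ratio of 6.80 (6.63 to 6.97), from 7165 and 39709 reads, and in TALL104 the level of ITGAL was above that of 99.7% of human genes. ITGB2 (chr21:46305868-46351904), the beta subunit, was at 22.6 FPKM (22.0 to 23.2) in Jurkat and 50.3 FPKM (49.3 to 51.3) in TALL104, a ratio of 2.22. The alpha subunit was the higher of the LFA-1 pair in both human lines, by 1.41 times (1.36 to 1.46) in Jurkat and 4.31 times (4.21 to 4.40) in TALL104. ITGB2 is overlapped on the opposite strand by ITGB2-AS1, at 2.81 FPKM in Jurkat and 7.55 in TALL104, and whether the counting used strand is not given in the sources used here.

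ITGAM, the alpha subunit of Mac-1, was at 0.0406 FPKM (0.0175 to 0.0800) in Jurkat, from 8 reads, and at 1.47 FPKM (1.29 to 1.67) in TALL104, from 236 reads. Its level in TALL104 was low beside the 50.3 FPKM of ITGB2, which was 34.2 times higher. With 1 FPKM added to both, the ratio of ITGAM over ITGB2 in TALL104 moved from 0.0292 to 0.0482. ITGAM (chr16:31271288-31344213) lies next to ITGAX and ITGAD, which encode further alpha partners of ITGB2. ITGAX was listed at 0 in Jurkat and at 9.33 FPKM in TALL104. ITGAD had 1 read in Jurkat, or 0.00652 FPKM, and 17.3 FPKM in TALL104, the highest of the integrins outside the group there. All 3 neighbours were thus higher in TALL104, and of the 3 ITGAM was the lowest there. The next gene with reads on the ITGAM side, PYCARD, an inflammasome adaptor, was at 0.0173 FPKM in Jurkat and 12.9 in TALL104, while on the far side ZNF843 was at 0.0796 and 0.0854 FPKM and ARMC5, beyond it, at 1.996 and 4.22 FPKM. These 3 genes were picked after their values were seen. Of the myeloid markers, CSF1R, which encodes a macrophage growth factor receptor, and S100A8 were at 0 in both lines, and the 8 markers summed to 1.83 FPKM in Jurkat and 0.369 FPKM in TALL104.

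The beta 7 subunit showed the widest human difference of the group. ITGB7 (chr12:53585107-53601066) was at 2.67 FPKM (2.42 to 2.94) in Jurkat, from 416 reads, and at 143 FPKM (141 to 146) in TALL104, from 18219 reads. The ratio was 53.7 (48.8 to 59.4), and the log2 ratio of Jurkat over TALL104 was -5.30. ITGB7 overlaps ZNF740 on the opposite strand, which was at 16.1 and 17.9 FPKM. Its alpha partners did not stand higher in TALL104. ITGA4 (chr2:182321929-182403667) was at 105 FPKM (104 to 106) in Jurkat and 45.6 FPKM (44.8 to 46.5) in TALL104, a ratio of 2.29 (2.24 to 2.35) the other way. ITGAE (chr17:3617922-3704482) was at 4.60 FPKM (4.32 to 4.88) in Jurkat and 3.29 FPKM (3.03 to 3.55) in TALL104. The counting intervals of ITGAE did not overlap, but with a log2 ratio of 0.38 it was the single human member within 1.5-fold. HASPIN, a mitotic kinase gene that lies inside ITGAE on the opposite strand, was at 16.4 FPKM in Jurkat and 0.938 in TALL104, so reads of the pair may not be told apart if strand was not used.

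In Jurkat, ITGA4 was 39.2 times (35.6 to 43.3) higher than ITGB7, while in TALL104 ITGB7 was 3.14 times (3.07 to 3.22) higher than ITGA4. The same turn was seen with ITGAE, which was 1.72 times higher than ITGB7 in Jurkat and 43.7 times lower than ITGB7 in TALL104.

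The beta 1 subunit and its alpha partners moved by unequal amounts. ITGB1 (chr10:33176201-33294720) was at 34.5 FPKM (33.7 to 35.3) in Jurkat and 57.8 FPKM (56.7 to 59.0) in TALL104, a ratio of 1.68. ITGA1 (chr5:52083750-52255039), the collagen-binding alpha subunit, was at 1.09 FPKM (1.01 to 1.17) in Jurkat and 24.5 FPKM (24.0 to 24.9) in TALL104, a ratio of 22.5 (20.8 to 24.3). PELO, a ribosome-rescue gene inside ITGA1 on the same strand, was at 9.80 and 6.12 FPKM. ITGA6 (chr2:173292082-173371187), the laminin-binding alpha subunit, was at 6.23 FPKM (5.91 to 6.56) in Jurkat and 30.4 FPKM (29.6 to 31.2) in TALL104, a ratio of 4.88. ITGAV (chr2:187454737-187545628), which also pairs with several other beta subunits and binds latent TGF-beta and vitronectin, was higher in Jurkat, at 4.06 FPKM (3.83 to 4.30) against 1.58 FPKM (1.42 to 1.75). In VLA-4, the ITGA4 and ITGB1 pair, the alpha subunit was 3.04 times higher than the beta subunit in Jurkat, and in TALL104 the beta subunit was 1.27 times (1.23 to 1.30) higher.

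The order of the members also differed between the human lines. In Jurkat the order from the top was ITGA4, ITGB1, ITGAL, ITGB2, ITGA6, ITGAE, ITGAV, ITGB7, ITGA1 and ITGAM, and no neighbours had overlapping counting intervals. In TALL104 it was ITGAL, ITGB7, ITGB1, ITGB2, ITGA4, ITGA6, ITGA1, ITGAE, ITGAV and ITGAM, and the intervals of ITGAV and ITGAM overlapped.

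The second comparison set the mouse lines side by side, EL4 against IVA12, a T-cell line against a B-lineage line. Of the 10 members, 6 were more than 1.5-fold apart, against 21% of all 27998 mouse genes. At 1 FPKM or more in either line it was 6 of 7 members, against 50.3% of such mouse genes. EL4 was higher for 3, against 9.75% of all genes, and IVA12 for 3, against 11.2%. The median log2 ratio of EL4 over IVA12 was 0.17 over the members and 0 over all mouse genes. At 1 FPKM or more in either line it was 0.23 over the members and -0.04 over all such mouse genes.

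**Figure D2:**
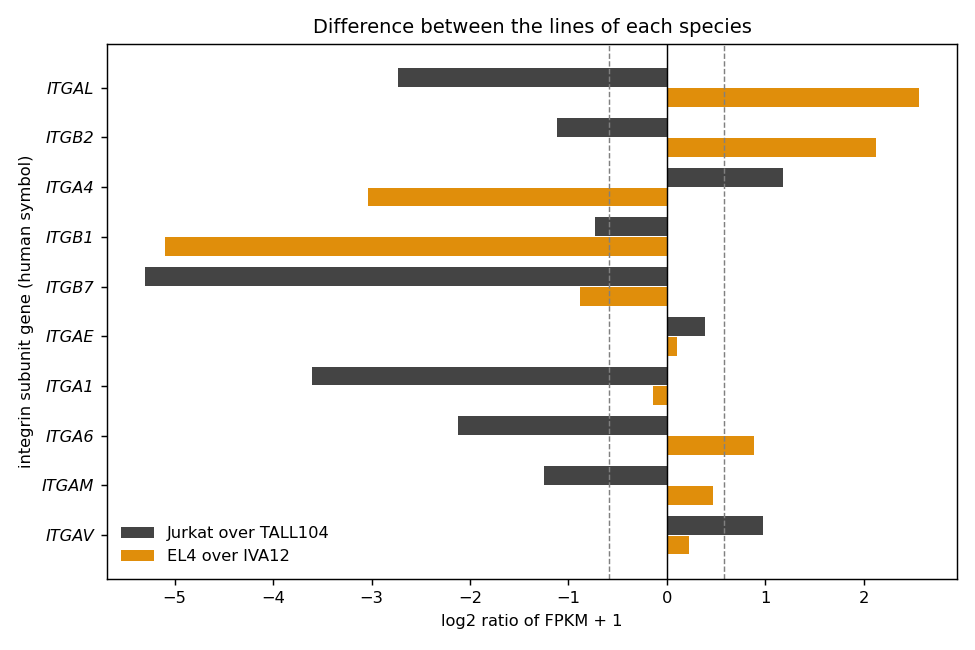
Log2 ratio of FPKM + 1 for each member, Jurkat over TALL104 in dark grey and EL4 over IVA12 in orange, with dashed lines at 1.5-fold; each bar rests on 1 library per line. The ITGB7 bar of the human pair reaches -5.30 and the Itgb1 bar of the mouse pair -5.10.

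Both LFA-1 subunits stood higher in EL4. Itgal (chr7:127296260-127335138 in mm10) was at 46.3 FPKM (45.4 to 47.2) in EL4 and 7.03 FPKM (6.63 to 7.44) in IVA12, a ratio of 6.59 (6.20 to 7.01). Itgb2 (chr10:77530252-77565708) was at 66.6 FPKM (65.0 to 68.2) in EL4 and 14.5 FPKM (13.7 to 15.4) in IVA12, a ratio of 4.59. In the mouse lines the beta subunit was the higher of the pair, by 1.44 times (1.39 to 1.48) in EL4 and 2.07 times (1.90 to 2.24) in IVA12.

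Both VLA-4 subunits were nearly without reads in EL4. Itga4 (chr2:79255426-79333123) was at 0.00890 FPKM (0.00243 to 0.0228) in EL4, from 4 reads, and at 7.30 FPKM (7.02 to 7.59) in IVA12, from 2580 reads. Itgb1 (chr8:128685654-128733200), the common beta subunit of the VLA receptors, was at 0.0229 FPKM (0.00472 to 0.0668) in EL4, from 3 reads, and at 34.0 FPKM (32.8 to 35.1) in IVA12, from 3505 reads. The Itgb1 ratio was 1485 with a counting interval of 508 to 7206. Of the human libraries, which hold no mouse cells, Jurkat gave 3 reads on mouse Itgb1, or 0.0211 FPKM, and TALL104 gave 0, and both gave 0 on mouse Itga4. Itga4 overlaps Cerkl on the opposite strand, which was at 0.659 FPKM in EL4 and 2.61 in IVA12.

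Of the 4 members that pair with Itgb1, Itga6 and Itgav were at 1 FPKM or more in EL4, and Itga4 and Itga1 were not. Itga6 (chr2:71745616-71858416) was at 3.78 FPKM (3.56 to 4.01) in EL4 and 1.599 FPKM (1.44 to 1.77) in IVA12, a ratio of 2.37. Itgav (chr2:83724397-83806916) was at 5.19 FPKM (4.96 to 5.44) and 4.30 FPKM (4.06 to 4.55), within 1.5-fold. Itgb4, the other beta subunit that pairs with Itga6, had 1 read in EL4, and Itgb3, a partner of Itgav, was at 0.580 FPKM; both were named after their values were seen. Itga1 (chr13:114953096-115101964) was listed at 0 in EL4, which allows up to 0.00502 FPKM at 3 reads over its annotated exon length, and at 0.106 FPKM in IVA12, where the number of reads was not resolved. Pelo, which overlaps Itga1 on the same strand, was at 12.5 FPKM in EL4 and 25.8 in IVA12.

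Itgb7 (chr15:102215995-102231944) was higher in IVA12, at 4.40 FPKM (3.92 to 4.92) against 1.93 FPKM (1.65 to 2.24) in EL4, a ratio of 2.28. Itgae (chr11:73090583-73147446) was low in both mouse lines, at 0.170 FPKM from 25 reads in EL4 and 0.0863 FPKM from 10 reads in IVA12, with overlapping intervals. Haspin overlaps Itgae on the opposite strand and was at 14.1 FPKM in EL4 and 10.7 in IVA12. Reads of the pair may not be told apart if strand was not used. Itgam (chr7:128062640-128118491) was at 0.471 FPKM (0.371 to 0.589) in EL4 and 0.0630 FPKM (0.0272 to 0.124) in IVA12. Its neighbours Itgax and Itgad, which lie in the same order in mouse, did not accompany it, with Itgax listed at 0 in both lines and Itgad at 2 reads in EL4 and 3 in IVA12. In IVA12, Spi1, a transcription factor gene of myeloid and B cells, was at 18.0 FPKM, while Csf1r and S100a8 were at 0.

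In EL4 the order was Itgb2, Itgal, Itgav, Itga6, Itgb7, Itgam, Itgae, Itgb1, Itga4 and Itga1, and the intervals of Itgb1 and Itga4 overlapped, while Itga1 was listed at 0. In IVA12 it was Itgb1, Itgb2, Itga4, Itgal, Itgb7, Itgav, Itga6, Itga1, Itgae and Itgam. There the intervals overlapped between Itga4 and Itgal, between Itgb7 and Itgav, and between Itgae and Itgam, and Itga1 had no interval.

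The members were then read as heterodimers, since an alpha subunit needs its beta. Of 8 heterodimers, both subunit genes were at 1 FPKM or more for 7 (Jurkat), 8 (TALL104), 1 (EL4) and 5 (IVA12). Some of these calls rest on an alpha subunit little above 1 FPKM. For VLA-1 in Jurkat it was ITGA1, at 1.09 FPKM, and for VLA-6 in IVA12 it was Itga6, at 1.599 FPKM. In TALL104 it was ITGAM, at 1.47 FPKM, for Mac-1 and ITGAV, at 1.58 FPKM, for alphaVbeta1. The heterodimers were not counted at a higher cutoff, which would leave these pairs out. The heterodimer below 1 FPKM in Jurkat was Mac-1, through ITGAM. LFA-1 was the pair left in EL4, where Itgb1 stood below 1 FPKM for all 4 of its heterodimers. In IVA12 the pairs below 1 FPKM were Mac-1, VLA-1 and alphaEbeta7, each through its alpha subunit. These are transcript levels, and no surface protein was measured.

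**Figure D3:**
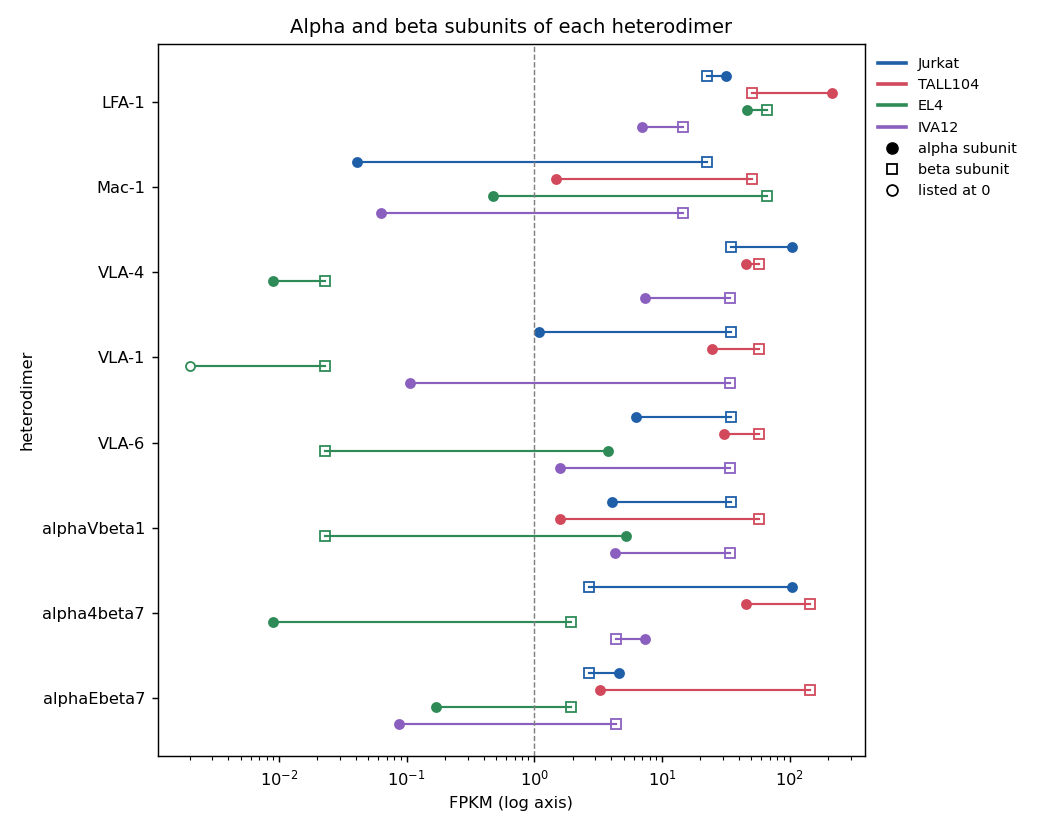
FPKM of the alpha (filled circle) and beta (open square) subunit of 8 heterodimers in each line, joined by a line, on a log axis with a dashed line at 1 FPKM; the open circle is a gene listed at 0 and its place on the axis is arbitrary. In EL4 only the LFA-1 pair lies wholly to the right of 1 FPKM.

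Set beside the 16 integrin subunit genes outside the group, the members held most of the integrin transcripts. Of the summed FPKM of 18 alpha subunit genes, the members held 92.9% for Jurkat, 86.1% for TALL104, 98.1% for EL4 and 92.8% for IVA12. Of the summed FPKM of 8 beta subunit genes they held 97.9%, 99.6%, 99.1% and 74.0%. ITGA4 alone made up 63.7% of the alpha total in Jurkat, while ITGAL made up 57.7% in TALL104 and Itgal 81.2% in EL4. In IVA12 the alpha total was shared by Itga4, with 33.1%, Itgal, with 31.8%, and Itgav, with 19.5%. The leading beta subunit was ITGB1 in Jurkat, with 56.4%, ITGB7 in TALL104, with 56.8%, Itgb2 in EL4, with 96.3%, and Itgb1 in IVA12, with 47.5%.

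**Figure D4:**
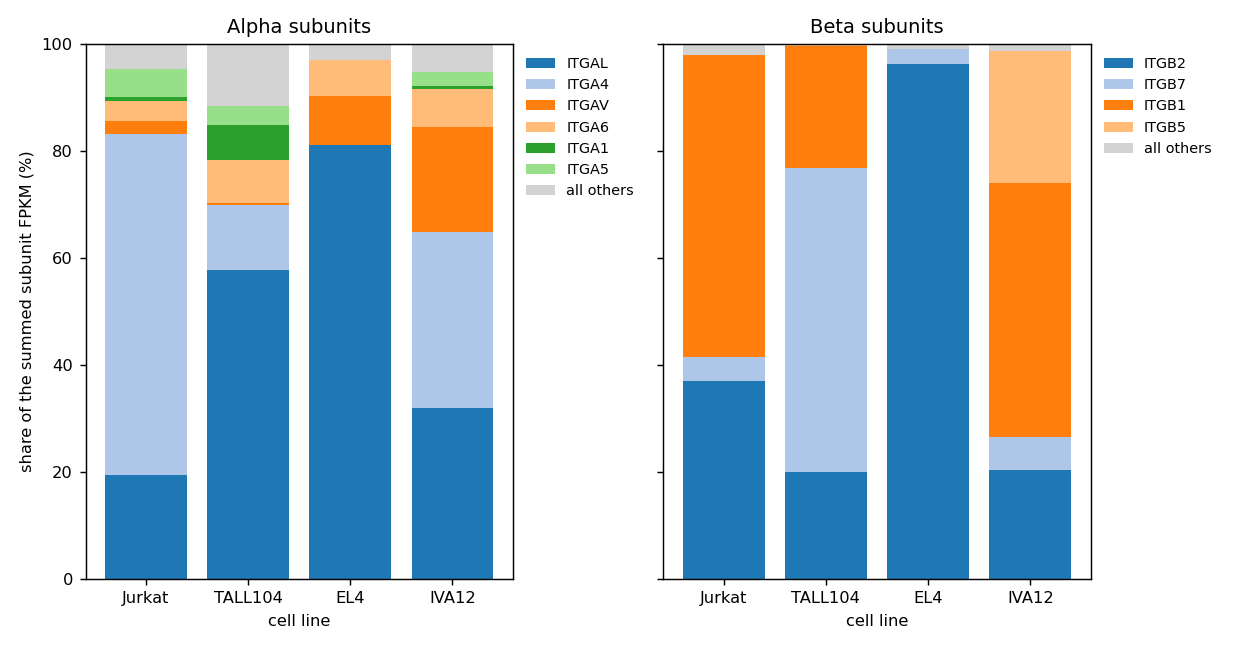
Share of the summed FPKM of 18 alpha (left) and 8 beta (right) integrin subunit genes held by each gene in the 4 lines, in percent, with genes under 5% in every line pooled in grey. Itgb2 holds 96.3% of the beta total in EL4, and Itgb5, outside the group, holds 24.6% in IVA12.

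Of the 16 other integrin genes, 7 were more than 1.5-fold apart in the human pair, 6 of them higher in TALL104 and 1 in Jurkat, against 25.3% of all human genes. At 1 FPKM or more in either line it was 6 of 7, against 62.6% of such human genes. Beside ITGAD and ITGAX, the widest was ITGA11, a collagen-binding alpha subunit, at 0.00506 FPKM from 1 read in Jurkat and 5.73 FPKM in TALL104. ITGA5, the fibronectin-receptor alpha subunit, was the highest of the 16 in Jurkat, at 8.81 FPKM against 13.2 in TALL104, within 1.5-fold. In the mouse pair 2 of 16 were past 1.5-fold, both higher in IVA12, against 21% of all mouse genes. At 1 FPKM or more in either line it was 1 of 1, against 50.3% of such mouse genes. Itgb5, a beta partner of Itgav, was at 0.00925 FPKM from 1 read in EL4 and 17.6 FPKM in IVA12, and Itga5 was listed at 0 in EL4 and at 0.587 FPKM in IVA12. Itga10, the highest of the 16 in EL4, reached 0.654 FPKM there and 0.244 in IVA12. The median log2 ratio over the 16 genes was -0.11 between the human lines and -0.03 between the mouse lines.

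Ligands of these receptors were measured in the same lines. Of 19 ligand genes, 8 were past 1.5-fold between the human lines, of which Jurkat was higher for 5 and TALL104 for 3, with a median log2 ratio of -0.13, against 25.3% of all human genes past 1.5-fold. At 1 FPKM or more in either line it was 6 of 8, Jurkat higher for 4 and TALL104 for 2, against 62.6%. The Jurkat count of 5 includes ICAM5, at 0.927 FPKM, whose reads were not resolved. JAM3, a junctional adhesion protein bound by Mac-1, was at 20.2 FPKM in Jurkat and 0.00647 in TALL104, from 1 read. ICAM1, the chief ligand of LFA-1, was at 0.349 FPKM in Jurkat and 9.41 in TALL104. ICAM4, a further ICAM, was at 5.38 and 0.643 FPKM, and ICAM3, the leukocyte ICAM, was the highest ligand in both lines, at 31.6 and 39.9 FPKM. VCAM1, the ligand of VLA-4, had no reads in Jurkat and 4 in TALL104, and MADCAM1 had 6 and 5. In the mouse pair 10 of 18 ligand genes found were past 1.5-fold, 3 higher in EL4 and 7 in IVA12, with a median log2 ratio near 0, against 21% of all mouse genes. At 1 FPKM or more in either line it was 9 of 10, against 50.3%. Tgfb1, whose latent form is bound by alpha V integrins, was at 20.1 FPKM in EL4 and 1.32 in IVA12. Lamc1, a laminin chain, was at 1.42 and 20.2 FPKM, and F11r, a junctional protein that binds LFA-1, was listed at 0 in EL4 and at 3.98 FPKM in IVA12. Vcam1, Madcam1 and Fn1 were at 0 in both mouse lines.

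The activation list holds genes that carry signals to the integrin tails, such as talin, kindlin and the RAP1 switch. It also holds inhibitors, such as FLNA and SHARPIN, Rap GTPase-activating proteins, such as SIPA1, and integrin-associated genes, such as CD47. A count of its genes higher in a line is therefore not a measure of integrin activation. Of 37 human genes found, 24 were past 1.5-fold, against 25.3% of all human genes. TALL104 was higher for 16, against 11.4% of all genes, and Jurkat for 8, against 13.8%. The median log2 ratio was -0.41. Of the 37 genes, 33 were at 1 FPKM or more in either line. Of the 33, 23 were past 1.5-fold, against 62.6% of all human genes at that level. CYTIP, which restrains the LFA-1 activator cytohesin, was at 0.0335 FPKM from 4 reads in Jurkat and 56.0 FPKM in TALL104. SKAP1, a T-cell adaptor in LFA-1 activation, was at 8.48 and 124 FPKM, and STK10, a lymphocyte kinase, at 5.55 and 85.0 FPKM. FLNA, which encodes filamin A and binds beta tails, was the highest of the list in Jurkat, at 136 FPKM against 108 in TALL104. A talin, TLN1, was at 45.2 and 113 FPKM, and the blood-cell kindlin, FERMT3, at 45.4 and 80.1 FPKM. Another talin, TLN2, and another kindlin, FERMT2, went the other way. They were at 1.39 and 0.0174 FPKM and at 3.91 and 0.568 FPKM.

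In the mouse pair 21 of 37 genes found were past 1.5-fold, against 21% of all mouse genes. EL4 was higher for 13, against 9.75% of all genes, and IVA12 for 8, against 11.2%. The median log2 ratio was 0.19. At 1 FPKM or more in either line 20 of 33 were past 1.5-fold, where the share over all such mouse genes was 50.3%. Cd81, a tetraspanin of B cells, was at 0.475 FPKM in EL4 and 43.96 in IVA12, and Ptk2, the focal adhesion kinase, at 0.0249 FPKM from 4 reads and 18.0 FPKM. Skap1 was at 16.8 FPKM in EL4 and listed at 0 in IVA12. Parvg, a blood-cell parvin, was the highest of the list in EL4, at 142 FPKM against 28.5 in IVA12, and Slc3a2, the heavy chain of CD98, the highest in IVA12, at 92.2 FPKM against 70.1. Tln1 stood at 39.5 and 25.6 FPKM and Fermt3 at 60.8 and 38.7 FPKM, so that both were present in EL4 beside the 3 reads of Itgb1. Tln2 and Fermt2 were higher in IVA12, at 5.64 and 11.4 FPKM and at 0 and 0.327 FPKM. TLN1, TLN2, FERMT2 and FERMT3 of both species were named after their values were seen.

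**Figure D5:**
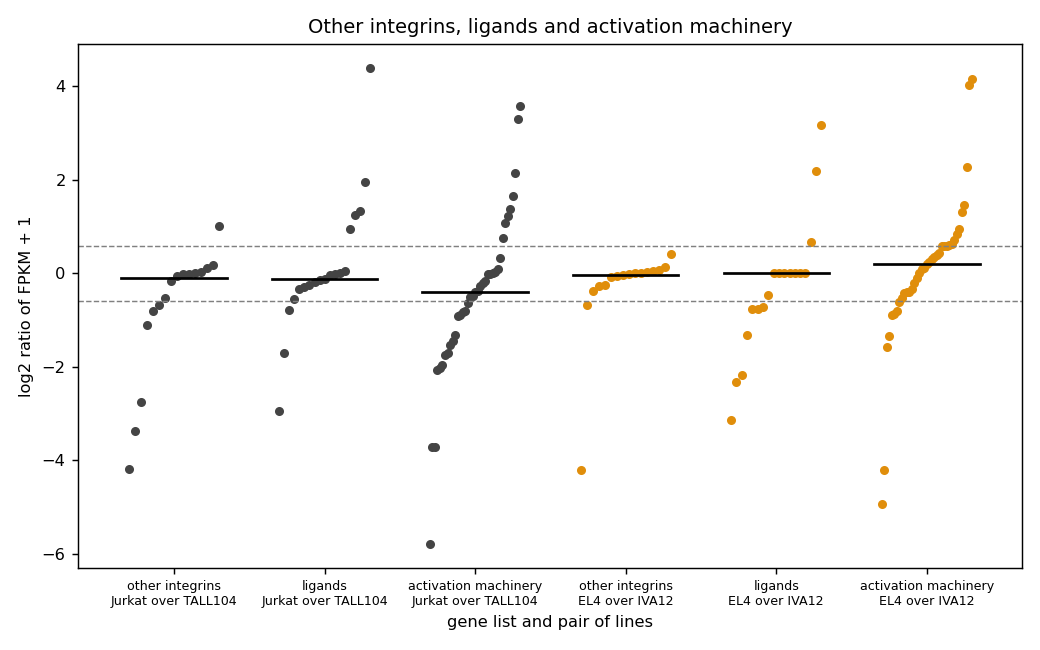
Log2 ratio of FPKM + 1 of each other integrin, ligand and activation gene, Jurkat over TALL104 (dark grey) and EL4 over IVA12 (orange), with the median as a black bar and dashed lines at 1.5-fold. The human activation genes have a median of -0.41 and run from -5.79 to 3.59.

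For each member, the gene whose level was nearest over the 4 libraries was found among 10547 non-member genes with a symbol shared by both species, as the distance between log2(FPKM + 1) values. This is a description over 4 points. With a pseudocount of 0.1 the nearest gene was the same for 7 of the 10 members, and another for ITGB7, ITGAE and ITGA1. The nearest to ITGAL was JAK1, a cytokine-receptor kinase gene, at 21.0, 187, 38.5 and 8.33 FPKM for Jurkat, TALL104, EL4 and IVA12 in turn, at a distance of 0.700. The nearest to ITGB2 was EMP3 (distance 0.641), and to ITGB7 it was LPAR6 (1.08), a receptor for lysophosphatidic acid. ITGA4 and ITGB1 had no gene within 1.5, their nearest being HMGN3 (1.62) and GSTO1 (1.51), and both of these genes were listed at 0 in EL4. The nearest to ITGA1 was TNFSF8 (0.181), to ITGA6 FAM78A (0.404), to ITGAE ARHGEF19 (0.215), to ITGAM LRRC2 (0.0876) and to ITGAV TMEM201 (0.372). ITGAE, with 36 genes within 0.5, had the most crowded surroundings of the group, and ITGAL, ITGB2, ITGA4, ITGB1 and ITGB7 had none within that distance.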

How the data were processed

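Polyadenylated RNA of 4 cell lines was sequenced with 1 stranded library per line. The submitters' processing notes name STAR 2.5.1b, featureCounts 1.6.3 and Cell Ranger 1.2.0, and per the methods the authors aligned paired reads to a combined human hg19 and mouse mm10 reference. The authors deposited 1 table of FPKM. The strand and multiple-alignment settings of the counting are not given in the sources used here.

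Libraries were grouped by cell line. Jurkat was set against TALL104, and EL4 against IVA12. A gene was detected at 1 FPKM or more, and the fold threshold was 1.5 on FPKM with a pseudocount of 1. Reads were recovered from the steps between FPKM values, with gene lengths up to 300000 bases and a relative tolerance of 1e-11, using the annotated exon length where it gave whole reads and otherwise the smallest length that did, so that reads of the latter genes may miss a whole factor. Models for counts need replicates and were not used.

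Symbols and hg19 and mm10 positions came from GENCODE human release 44 lifted to GRCh37 and mouse release M21. RASSF5 and PECAM1 in human, and Icam3 and Fyb1 in mouse, were not matched, and 1 marker gene is not reported here. The members, gene lists and alternatives were chosen with earlier results of these data known. The text names all members, the 3 widest past 1.5-fold and the highest gene per line of each list, the nearest gene of each member and markers that bear on a member. The method was tested on simulated data, with reads made and recovered at the annotated exon lengths. Recovery at another length, as used for the human members, was not tested. Python 3.11.15, NumPy 2.4.6, pandas 2.3.3, SciPy 1.17.1 and matplotlib 3.10.9 were used. The alternatives were pseudocounts of 0.1 and 0.01, 3 scalings, a filter at 1 FPKM, a 2-fold threshold, a pseudocount of 1 for heterodimer ratios, which otherwise had none, and detection at 0.1 FPKM, 5 FPKM or any value above 0. Recovered reads and reads on the members of the other species were added after the data were seen.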

Additional observations from a re-analysis of the deposited data

Results flagged for a closer look

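Reads on the leukocyte integrin genes of the species that a library does not hold were looked at because no comparison uses them, and 3 of 4 libraries passed the limit of 3 reads that a count of 0 allows. The Jurkat library had 11 reads on 3 of the 10 mouse members, at most 0.0471 FPKM, on Itgb2. The EL4 library had 20 reads on 7 of the 10 human members, at most 0.0278 FPKM, on ITGB7. The IVA12 library had 75 reads on 9 of the 10 human members, at most 0.136 FPKM from 21 reads, on ITGB1. The TALL104 library had 2 reads. Genes of the other species held 0.0474% of all FPKM of the Jurkat library and 0.175% of that of IVA12. On the members with few reads in their own species, mouse Itga4 had 0 reads in both human libraries, human ITGAM had 0 in both mouse libraries, and mouse Itgb1 had 3 in Jurkat and 0 in TALL104.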

How the results depend on the processing

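Each line had 1 library, so no replicate could be left out. No paired analysis was possible because each line had 1 library, so the lines compared share fewer than 2 replicate numbers. No member log2 ratio turned its direction, but a pseudocount, the same for both lines, and the filter at 1 FPKM cannot turn one. Over the alternatives 81 of 117 values moved by less than their counting error, including those under the filter, which leaves a ratio unchanged. Under the 3 scalings it was 49 of 60 values, and none turned. The count of human members past the threshold was 9 under every alternative but the 2-fold threshold, which gave 7. The mouse count of 6 was less steady, at 8 and 9 with pseudocounts of 0.1 and 0.01 and 4 with a 2-fold threshold. It stayed at 6 under the scalings and the filter at 1 FPKM. With pseudocounts of 0.1 and 0.01, the members' median log2 ratio was -1.71 and -1.72 in the human pair and 0.40 and 0.59 in the mouse pair, the ligands past 1.5-fold in the human pair were 14 and 17, and the other integrins past 1.5-fold in the mouse pair were 7 and 13. A smaller pseudocount by its construction widens ratios of low genes. Among genes at 1 FPKM or more in either line, 1 other integrin was past 1.5-fold in the mouse pair. With a 2-fold threshold, the mouse pair had 1 other integrin, 6 ligands and 9 activation genes. Detection at 5 FPKM gave 5 members in Jurkat, 3 in EL4 and 4 in IVA12, and any FPKM above 0 gave 9 in EL4. With 1 FPKM added to both subunits, 17 of 27 heterodimer ratios moved beyond counting error. Adding the same value to both cannot change which subunit is higher. Depth limits the members at a few reads: Itga4, Itgb1 and Itga1 in EL4, ITGAM in Jurkat and Itgam and Itgae in IVA12.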
